A study of Mus musculus with 6 samples.

Results

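Respiratory chain genes code for the subunits of the 5 protein complexes of the inner mitochondrial membrane that move electrons from NADH and succinate to oxygen and make ATP. They were taken as the rows of the count table whose symbol belongs to the families Nduf, Sdh, Uqcr, Cyc1, Cox4 to Cox8 or Atp5, or to the protein-coding genes of mitochondrial DNA. This gave 108 of 35275 rows, of which 95 lie in nuclear and 13 in mitochondrial DNA. The cells were Melb-a, a line of mouse melanoblasts (C57BL/6J skin), the precursors of pigment cells. Both groups spent 48 h in DMEM with 10% serum, 2 nM NDP-α-MSH, a melanocortin that drives pigmentation, and 200 nM of the phorbol ester PMA. One group of 3 samples received the vehicle DMSO and the other group of 3 samples received 10 µM iBRD9, a small molecule that occupies the bromodomain of the SWI/SNF subunit BRD9. All samples came from 1 cell line, and with 1 compound at 1 dose and time, actions of iBRD9 through BRD9 and through other proteins cannot be told apart. Messenger RNA was selected by its poly(A) tail and each library held between 22846391 and 29680952 counts.

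Complex I (NADH dehydrogenase), complex III (the cytochrome bc1 complex) and complex IV (cytochrome c oxidase) pump protons out of the matrix while electrons pass through them. Complex II (succinate dehydrogenase) joins the tricarboxylic acid cycle to the chain without pumping, and complex V (ATP synthase) lets protons back in and makes ATP. Mitochondrial DNA codes for membrane subunits of complexes I, III, IV and V, while every subunit of complex II and most subunits of the others are nuclear. Melanosomes and mitochondria are in contact in pigment cells, and the melanocyte regulator Mitf is known to raise the respiratory coactivator gene Ppargc1a.

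Most respiratory chain genes that changed were lower with iBRD9, in all 5 complexes and from both genomes, while a few accessory subunits rose. Of the 94 members with enough counts to test, 52 fell, 7 rose and 35 were not called. The test was edgeR's quasi-likelihood test over all genes at an adjusted p under 0.05. Among all 13602 tested genes, 60.7% were called, 30.9% lower and 29.8% higher, against 55.3% and 7.45% of the tested members. The median log2 fold change of the tested members was -0.31, and that of all tested genes was 0.007. Nuclear members had a median of -0.24 (43 lower, 7 higher, 32 not called) and mitochondrially encoded members a median of -0.44 (9 lower, 0 higher, 3 not called). Among these 9 falls, mt-Co2, mt-Atp6 and mt-Nd3 had uncertain counts, as given below. mt-Co1 and mt-Nd4 share 51.1% and 62.2% of their 50-base windows with other annotated genes. Mitochondrially encoded members sharing under 10%, a limit set after the data were seen, had a median of -0.36. They include mt-Atp8, which was listed at a low level. No mitochondrially encoded member was higher at an unadjusted p under 0.05 in edgeR (0), nor at an adjusted p under 0.05 in DESeq2 (0) or limma-voom (0). The groups of libraries did not overlap in 64 of the 94 members, near the 68.0% found over all tested genes, and DMSO was the upper group in 52 of the 64. The 14 members that were not tested, pseudogene symbols, duplicate genes and isoforms of other tissues among them, reached at most 0.200 CPM, counts scaled to a common library size, in any library. Fewer cells of a kind and less RNA per cell cannot be told apart in these bulk samples.

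**Figure D1:**
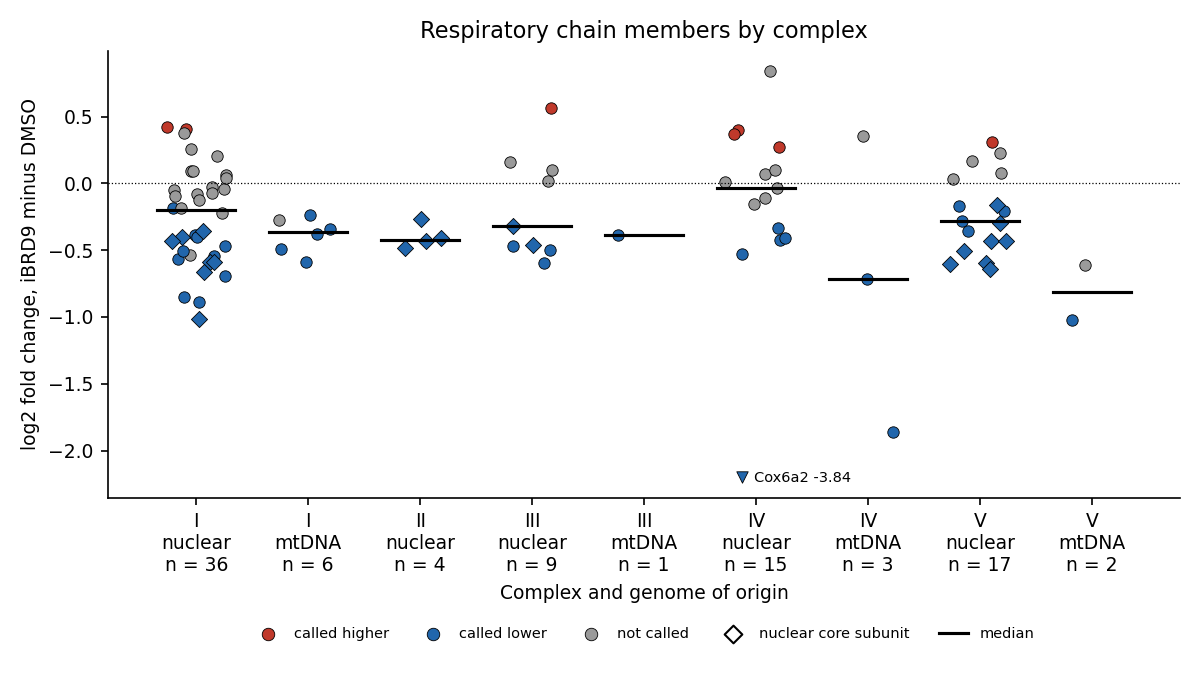
The log2 fold change (iBRD9 minus DMSO) of each of the tested members of complexes I to V on the vertical axis, by complex and genome of origin (mtDNA, mitochondrial DNA), with the median of each column as a line. Diamonds mark nuclear core subunits, all 21 of which were called lower; Cox6a2 lies below the axis at -3.84 and is drawn at its edge.

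DMSO replicate 1 differed from DMSO replicates 2 and 3, and this touches every nuclear count here. Over the 50 called nuclear members its level lay 0.422 of the way (median) from DMSO replicates 2 and 3 to the iBRD9 mean, and it was the lowest DMSO library in 38 of the 43 members that fell. Over all 8262 called genes the median was 0.279, and it was the lowest DMSO library in 3061 of 4205 genes that fell, so its position was not a trait of the members alone. Without it, 13 members were called higher and 61 lower, 6 and 11 of them new calls, and over all genes 5159 were called higher and 5152 lower. Scaling by library size alone, in place of TMM, moved the median of all genes to 0.113 and gave 18 higher and 44 lower members, with 4999 higher and 3385 lower genes in all. The summed level of 7 melanocyte markers was 15314 to 17573 CPM with DMSO and 14732 to 16227 CPM with iBRD9. Tyr, Tyrp1, Mlana and Sox10 among them fell and Dct rose. Fibroblast markers, 5 genes of which all were detected, summed to 75.2 to 99.7 CPM with DMSO and 131 to 145 CPM with iBRD9. Of these 5 genes, 2 rose, 1 fell (-1.95) and 2 were not called. Keratinocyte markers (2 of 4 at 0 in every library) stayed between 3.50 and 4.32 CPM. Leukocyte and endothelial markers (1 of 4 at 0) summed to 5.99 to 7.77 CPM with DMSO and 4.48 to 5.13 CPM with iBRD9. The part of the fibroblast, leukocyte and endothelial markers in the results below was not tested.

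Summed over its nuclear members, each complex was lower with iBRD9, complex IV least. ATP synthase held the largest sum, at 6649, 7679 and 7650 CPM in DMSO replicates 1, 2 and 3 and 5226, 5460 and 5362 CPM in iBRD9 replicates 1, 2 and 3, a ratio of means of 0.730. Complex I summed to 3062, 3636 and 3677 CPM with DMSO and 2555, 2607 and 2555 CPM with iBRD9, a ratio of 0.744. For complex II the sums were 918, 977 and 960 CPM with DMSO and 713, 728 and 721 CPM with iBRD9, a ratio of 0.757. In these complexes every DMSO library was above every iBRD9 library, DMSO replicate 1 included. The ratio was 0.811 for complex III. Complex IV summed to 2414, 2817 and 2831 CPM with DMSO and 2420, 2456 and 2456 CPM with iBRD9, a ratio of 0.909, and its groups overlapped through DMSO replicate 1. The sums are dominated by a few abundant genes and were not tested.

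**Figure D2:**
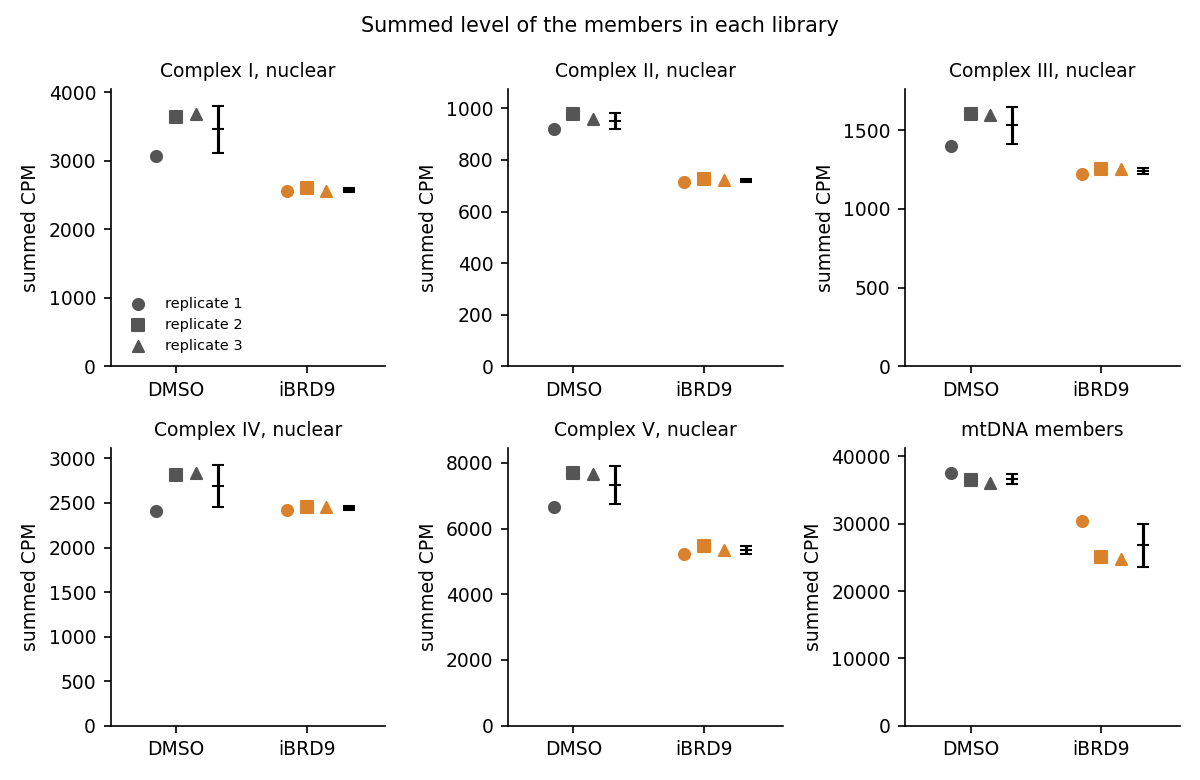
Summed CPM of the nuclear members of each complex and of all mitochondrially encoded (mtDNA) members in each library; symbols are replicates and bars are the mean ± SD of 3 libraries. The groups overlap only for complex IV, where DMSO replicate 1 lies at 2414 CPM beside iBRD9 libraries at 2420 to 2456 CPM.

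Complex I takes electrons from NADH through flavin and iron-sulfur clusters to coenzyme Q. Its nuclear core is the set of subunits shared with bacteria, and the core subunits described here fell by 0.36 to 0.66 on the log2 scale. Ndufs1, the largest iron-sulfur subunit of the complex, held 244, 241 and 247 CPM with DMSO and 168, 161 and 159 CPM with iBRD9 (-0.58, SE 0.052, edgeR adjusted p = 4.63e-05). In this gene the 3 DMSO libraries agreed, DMSO replicate 1 included. Ndufv1, which binds NADH and the flavin, held 273, 334 and 346 CPM with DMSO and 219, 206 and 210 CPM with iBRD9 (-0.59, SE 0.089, edgeR adjusted p = 0.000713). Every iBRD9 library lay below every DMSO library there, and DMSO replicate 1 lay between the other DMSO libraries and iBRD9. Ndufs8 (-0.66), Ndufs7 (-0.43), Ndufs3 (-0.40) and Ndufv2 (-0.36), subunits of the arm that protrudes into the matrix, also fell.

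Accessory subunits of complex I, which surround the core and are needed for assembly and stability, did not move together. Outside the core 29 members were tested, the pseudogene Ndufb4c among them. Of these, 10 fell (34.5%), 2 rose (6.90%) and 17 were not called, with a median of -0.10. Of all tested genes, 30.9% fell and 29.8% rose, so the share of falls was near that of all genes. The largest falls were in Ndufa9, Ndufa13 and Ndufa10 (-0.69). Ndufa9, a subunit near the coenzyme Q site, held 172, 209 and 214 CPM with DMSO and 110, 107 and 104 CPM with iBRD9 (-0.89, SE 0.085, edgeR adjusted p = 6.63e-05). Ndufa13, also known as GRIM-19, held 71.8, 95.3 and 97.8 CPM with DMSO and 48.3, 48.1 and 50.7 CPM with iBRD9 (-0.85, SE 0.113, edgeR adjusted p = 0.000364). Both groups stayed apart for these genes. Ndufa7 and Ndufb10 were the members of complex I that rose. Ndufa7 held 53.8, 66.8 and 68.0 CPM with DMSO and 81.4, 87.1 and 84.8 CPM with iBRD9 (0.43, SE 0.093, edgeR adjusted p = 0.00432). Ndufb10 went from 104 ± 13.1 to 138 ± 4.89 CPM (SD, n = 3; 0.41). For both genes DMSO replicate 1 was the lowest DMSO library, so it lay farther from iBRD9 than the other DMSO libraries did, the opposite of its place for most members. Ndufa5 (0.25, edgeR adjusted p = 0.0519) was not called, and without DMSO replicate 1 it was (0.36, edgeR adjusted p = 1.03e-05). With all libraries in, DESeq2 (adjusted p = 0.0443) and limma-voom (adjusted p = 0.0419) called it higher. So did edgeR with DESeq2 size factors, library size alone or other filters, but not with the replicate block. The other fits that leave out 1 library did not call it. Without DMSO replicate 1, 4 members of complex I were called higher.

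All 4 subunits of complex II fell. Sdha, which holds the flavin and oxidises succinate, held 346, 346 and 335 CPM with DMSO and 260, 252 and 249 CPM with iBRD9 (-0.43, SE 0.051, edgeR adjusted p = 0.000202). Sdhb, the iron-sulfur subunit, held 177, 222 and 219 CPM with DMSO and 145, 148 and 147 CPM with iBRD9 (-0.49, SE 0.086, edgeR adjusted p = 0.00151). The membrane anchors Sdhc (205 ± 10.0 to 154 ± 3.50 CPM; SD, n = 3) and Sdhd (199 ± 4.37 to 166 ± 7.44 CPM; SD, n = 3) changed by -0.41 and -0.26. No DMSO library overlapped an iBRD9 library in any of the 4 genes. Per kilobase of transcript, the mean DMSO level ran from 64.6 CPM per kilobase in Sdhc to 180 CPM per kilobase in Sdhb.

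In complex III the subunits with redox centres and the large subunits that face the matrix fell, while the hinge protein rose. Cyc1, cytochrome c1, held 297, 356 and 349 CPM with DMSO and 238, 244 and 247 CPM with iBRD9 (-0.46, SE 0.075, edgeR adjusted p = 0.00105). Uqcrc1, one of the large subunits that face the matrix, held 259, 294 and 286 CPM with DMSO and 185, 183 and 187 CPM with iBRD9 (-0.60, SE 0.062, edgeR adjusted p = 9.95e-05). Its partner Uqcrc2 (-0.50) and the Rieske iron-sulfur protein Uqcrfs1 (211 ± 3.22 to 169 ± 4.15 CPM, -0.32; SD, n = 3) fell as well. Uqcrq, a small membrane subunit, was called lower (-0.47, edgeR adjusted p = 0.0186), and the call was lost when DMSO replicate 2 (-0.41), iBRD9 replicate 1 (-0.43) or iBRD9 replicate 2 (-0.48) was left out. Uqcrh, the acidic hinge protein between cytochrome c1 and cytochrome c, held 129, 103 and 103 CPM with DMSO and 163, 167 and 165 CPM with iBRD9. It rose by 0.57 (SE 0.089, edgeR adjusted p = 0.000842), the largest rise of any called member, and its groups did not overlap. Among the members of complex III that were not called, Uqcrb held 40.8, 30.8 and 31.2 CPM with DMSO and 37.7, 36.0 and 36.1 CPM with iBRD9. DMSO replicate 1 alone lay above iBRD9 there, and without it Uqcrb was called higher (0.23, edgeR adjusted p = 0.0014), which made 2 rises in the complex.

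Complex IV has its catalytic core in mitochondrial DNA, and its nuclear subunits included falls and rises. Of 15 tested, 5 fell (33.3%), 3 rose (20%) and 7 were not called, with a median of -0.03, shares near the 30.9% and 29.8% of all tested genes. Ndufa4, a subunit once placed in complex I, held 312, 295 and 290 CPM with DMSO and 378, 396 and 385 CPM with iBRD9 (0.37, SE 0.055, edgeR adjusted p = 0.000627). Cox7b, a small membrane subunit, held 71.6, 59.3 and 57.2 CPM with DMSO and 80.4, 83.9 and 84.2 CPM with iBRD9 (0.40, SE 0.089, edgeR adjusted p = 0.00458). Cox5a, a matrix subunit, rose less (54.0 ± 2.58 to 65.3 ± 2.47 CPM, 0.27; SD, n = 3). Here DMSO replicate 1 was the highest DMSO library in all 3 genes, and every iBRD9 library was higher still. Cox5b (-0.42), Cox8a (-0.41) and Cox7a2l (-0.53) fell.

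Cox8a held 444, 532 and 547 CPM with DMSO and 381, 379 and 386 CPM with iBRD9. Cox4i1, the regulatory subunit that binds adenine nucleotides, held 362, 499 and 490 CPM with DMSO and 359, 355 and 356 CPM with iBRD9. DMSO replicate 1 lay beside the iBRD9 libraries in that gene, and the fall of 0.34 (edgeR adjusted p = 0.0306) lost the call in 5 of the 6 fits that leave out 1 library, at -0.34 to -0.26. The exception was the fit without DMSO replicate 1. Cox6a1 (339, 453 and 464 CPM with DMSO; 382, 367 and 382 CPM with iBRD9) was not called, and without DMSO replicate 1 it fell by 0.29 (edgeR adjusted p = 1.41e-06). Cox6b1, Cox6c, Cox7a2 and Cox7c were not called, with log2 fold changes from -0.03 to 0.10.

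Among tissue isoforms of complex IV, the forms of heart and muscle were low in these cells, and 1 of them was called. Cox6a2 held 1.26, 3.63 and 4.51 CPM with DMSO and 0.162, 0.240 and 0.253 CPM with iBRD9, a fall of 3.84 on the log2 scale (SE 0.554, edgeR adjusted p = 0.000546). It was the largest change of any member and a change in a low gene. Cox7a1 (0.334 ± 0.0504 to 0.593 ± 0.125 CPM; SD, n = 3) was not called. Cox4i2, Cox6b2 and Cox8b did not have enough counts to test. Ndufa4l2, a relative of Ndufa4 known for its response to low oxygen, held 0.791 ± 0.143 CPM with DMSO and 0.592 ± 0.00794 CPM with iBRD9 and was not called.

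ATP synthase fell in its catalytic head and its rotor ring. Atp5b, the catalytic beta subunit, had the highest level per kilobase of all tested nuclear members, 1457 CPM per kilobase with DMSO and 959 CPM per kilobase with iBRD9. In CPM it held 2476, 2948 and 2949 with DMSO and 1805, 1871 and 1839 with iBRD9. The alpha subunit Atp5a1 held 1547, 1851 and 1837 CPM with DMSO and 1119, 1184 and 1164 CPM with iBRD9 (-0.59, SE 0.081, edgeR adjusted p = 0.000409). The groups were apart for both genes. Gamma (Atp5c1, -0.43) and delta (Atp5d, -0.43) of the central stalk fell, and epsilon (Atp5e, -0.30) was called with overlapping groups. The ring through which protons pass is made of 1 mature protein coded by 3 genes, and these fell by different amounts. Atp5g1 held 118, 144 and 146 CPM with DMSO and 85.8, 88.6 and 87.5 CPM with iBRD9 (-0.64, SE 0.085, edgeR adjusted p = 0.000361). Atp5g2 changed by -0.51 and Atp5g3 by -0.16. Per kilobase of transcript, Atp5g3 held 586 CPM with DMSO and 523 CPM with iBRD9, while Atp5g2 held 200 CPM and Atp5g1 28.8 CPM with DMSO. The value of Atp5g1 rests on a transcript of 4715 bases, and which transcript the cells express was not determined. The difference between the falls of these 3 genes was not tested. Of the 50-base windows of Atp5g2, 87.4% also occur in other annotated genes, so its counts are uncertain.

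In the peripheral stalk of ATP synthase, Atp5o (-0.35), Atp5h (-0.28) and Atp5f1 (-0.21) fell. Of its small membrane subunits, Atp5j2 (193 ± 5.33 to 197 ± 7.62 CPM; SD, n = 3) and Atp5k (24.2 ± 2.23 to 28.4 ± 2.06 CPM; SD, n = 3) were not called, nor was the stalk subunit Atp5j. Atp5l (-0.17) was called lower. Atp5s, taken by its symbol, rose by 0.31 (edgeR adjusted p = 0.0242). The calls of the weaker members were marginal. Atp5s lost its call without DMSO replicate 2 (0.31), DMSO replicate 3 (0.24), iBRD9 replicate 1 (0.29) or iBRD9 replicate 3 (0.29), so that no member of the complex was called higher in 3 of these fits, while 3 were without DMSO replicate 1. Atp5e and Atp5g3 lost theirs in each fit that left out a library other than DMSO replicate 1, at -0.34 to -0.21 and -0.18 to -0.14, and Atp5l in 4 of 6 fits, at -0.18 to -0.13. In all, 46 of the 59 called members were called in every one of the 6 fits that leave out 1 library.

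**Figure D3:**
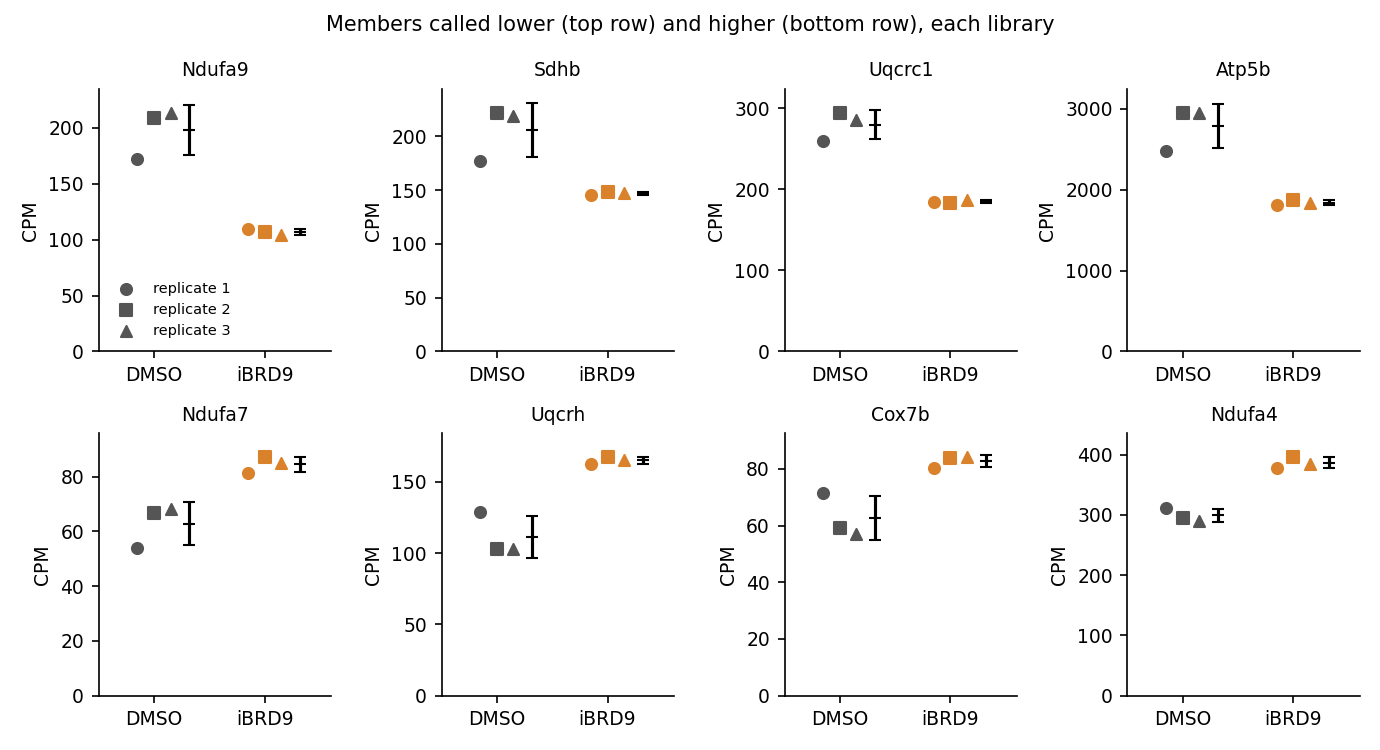
CPM of 4 members that fell (top row) and 4 that rose (bottom row) in each library, on axes that start at 0; symbols are replicates and bars are the mean ± SD of 3 libraries. In each of the 8 genes no DMSO library overlaps an iBRD9 library, and DMSO replicate 1 (circles) is the DMSO library nearest to iBRD9 in every gene but Ndufa7, where it is the farthest.

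The calls were also counted by the role of the subunit across complexes. The 21 nuclear core subunits were taken as those of complex I shared with bacteria, the 4 of complex II, Cyc1 and Uqcrfs1, and the F1 head and c ring of ATP synthase, a division made from textbook roles after the values were seen. All 21 fell, with a median of -0.43, and 19 of them were called in each of the 6 fits that leave out 1 library. The other 61 tested nuclear members, here called accessory, include Ndufa4l2, which is in none of the complexes, and Ndufb4c, annotated as a processed pseudogene. Of these 61, 22 fell (36.1%), 7 rose (11.5%) and 32 were not called, with a median of -0.08. Of all tested genes, 30.9% fell and 29.8% rose. With library size alone as the scale, 18 accessory members were called lower and 18 higher, and 19 core subunits lower and 0 higher. All 7 rises were outside the core, Atp5s, which was taken by its symbol, among them. Core transcripts were also longer (median 1520 bases against 683) and more abundant (median 211 CPM with DMSO against 63.3). In accessory members of 1000 bases or more, 9 of 16 fell and 2 rose, and in those under 1000 bases 13 of 45 fell and 5 rose. The 4 core subunits under 1000 bases all fell, with a median of -0.36.

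Longer nuclear members had lower fold changes, with role and abundance not held fixed. Spearman's rho between transcript length and log2 fold change was -0.51 across the 82 tested nuclear members and 0.017 across 13519 tested genes, as a description over genes of the same 6 libraries. Among all tested genes under 1000 bases, 25.2% were higher and 21.5% lower, against 10.2% and 34.7% of the 49 nuclear members of that length. From 1000 to under 2000 bases the shares were 25.3% and 34.2% of all genes, and 7.69% and 76.9% of 26 members. Abundance also went with the change, with a rho of -0.39 over the nuclear members and -0.23 over all tested genes. The share lower was 85.7% of the 14 members and 47.0% of all genes at a mean log2 CPM of 8 or more, and 65.8% of 38 members and 41.4% of all genes from 6 to under 8. From 4 to under 6 it was 21.7% of 23 members and 36.0% of all genes, and under 4 it was 14.3% of 7 members and 18.4% of all genes. Length is that of 1 annotated transcript per gene, which may not be the one expressed. The part of length, abundance and role in the falls was not tested.

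**Figure D4:**
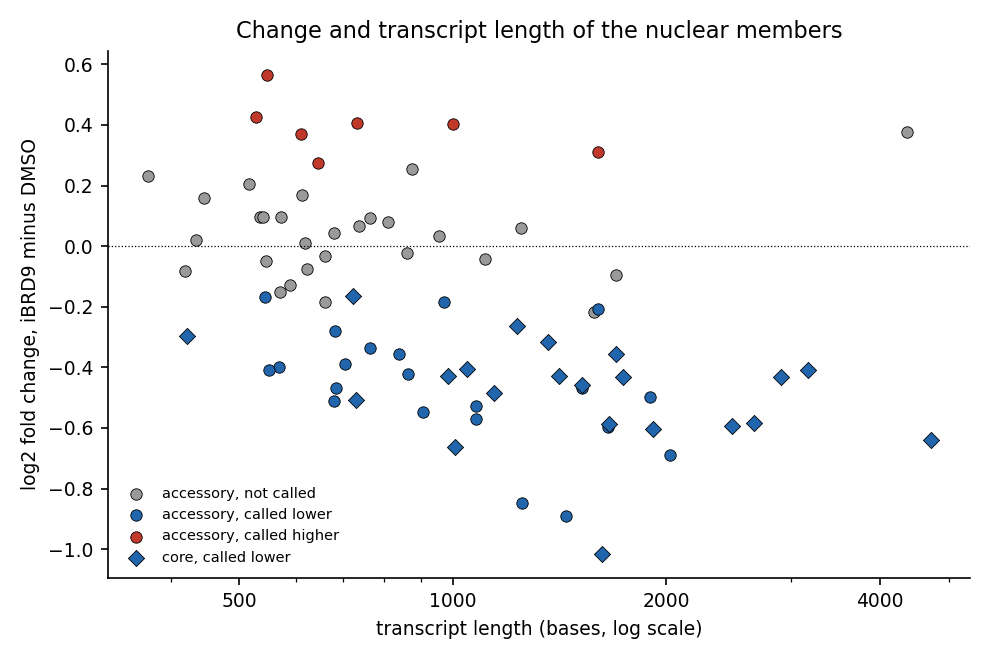
Log2 fold change (iBRD9 minus DMSO) against transcript length (log axis) for the 77 tested nuclear members whose mean log2 CPM is 1 or more; diamonds are core subunits and colour gives the call. Core subunits all lie below 0, while the members above 0 are accessory and mostly shorter than 1000 bases.

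The mitochondrially encoded members gave 3.71%, 3.46% and 3.42% of counts in the DMSO libraries and 3.15%, 2.60% and 2.57% in the iBRD9 libraries. Genes of mitochondrial DNA that do not code for protein were not summed. Members with uncertain low counts, given below, were summed as listed. The mean share was 3.53% ± 0.159 with DMSO and 2.77% ± 0.329 with iBRD9 (SD, n = 3), and the groups did not overlap. The nuclear members took 1.54% ± 0.0906 and 1.28% ± 0.0178 of counts. Mitochondrially encoded counts were therefore a similar part of all counts of members, 69.7% ± 2.17 and 68.3% ± 2.73, with overlapping libraries. DMSO replicate 1 had the highest mitochondrial share of its group and the lowest nuclear one. Poly(A) selection takes RNA by its tail, and the part of the presence or length of tails in these levels was not tested.

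Of the 13 mitochondrially encoded members, 7 made up nearly all of these counts. mt-Co1, the catalytic subunit of complex IV that holds the heme and copper of the oxygen site, held 12087, 11670 and 11352 CPM with DMSO and 8200, 6593 and 6601 CPM with iBRD9. It fell by 0.71 (SE 0.099, edgeR adjusted p = 0.000434), the largest fall of the 7. mt-Cytb, the cytochrome b of complex III, held 5686, 5499 and 5459 CPM with DMSO and 4835, 3974 and 3910 CPM with iBRD9 (-0.39, SE 0.092, edgeR adjusted p = 0.00644). The groups were apart in both genes. In each of the 7 abundant genes iBRD9 replicate 1 was the highest iBRD9 library. Per kilobase, the mean DMSO levels ran from 1678 CPM in mt-Nd4 to 7575 CPM in mt-Co1, above every nuclear member in each case.

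The complex I genes of mitochondrial DNA, which form the proton-pumping arm in the membrane, had smaller fitted changes than mt-Co1 where abundant, a difference that was not tested. mt-Nd4 held 2349, 2283 and 2304 CPM with DMSO and 1823, 1566 and 1537 CPM with iBRD9 (-0.49, SE 0.078, edgeR adjusted p = 0.000864). mt-Nd5 held 5608, 6524 and 6461 CPM with DMSO and 5514, 4365 and 4416 CPM with iBRD9 (-0.38, edgeR adjusted p = 0.0155). mt-Nd2 (3705 ± 43.2 to 3146 ± 293 CPM; SD, n = 3) was called at -0.24 and mt-Nd6 (986 ± 93.2 to 778 ± 121 CPM; SD, n = 3) at -0.34, the latter with overlapping groups. These calls were marginal, and were lost in several fits that leave out 1 library while the fold changes stayed near their size. mt-Nd5 lost its call without DMSO replicate 2 (-0.35), iBRD9 replicate 2 (-0.32) or iBRD9 replicate 3 (-0.33). mt-Nd2 lost it without DMSO replicate 2 (-0.24) or 3 (-0.25) or iBRD9 replicate 2 or 3 (-0.20 in both), and mt-Nd6 in each fit except that without iBRD9 replicate 1, at -0.42 to -0.27. mt-Nd1 held 7045, 5733 and 5550 CPM with DMSO and 5603, 4846 and 4669 CPM with iBRD9. It was not called (-0.28, edgeR adjusted p = 0.0575), and was without DMSO replicate 1 (-0.17, edgeR adjusted p = 0.021), DMSO replicate 3 (-0.35) or iBRD9 replicate 1 (-0.36). With all libraries in, DESeq2 (adjusted p = 0.0258), limma-voom (adjusted p = 0.0467) and edgeR with no filter or a replicate block called mt-Nd1 lower. DESeq2 size factors, library size alone and the filter at 1 CPM did not. mt-Nd6 is the single member on the light strand, and the library kit is not described as keeping strand, so its reads cannot be told apart from antisense transcripts.

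**Figure D5:**
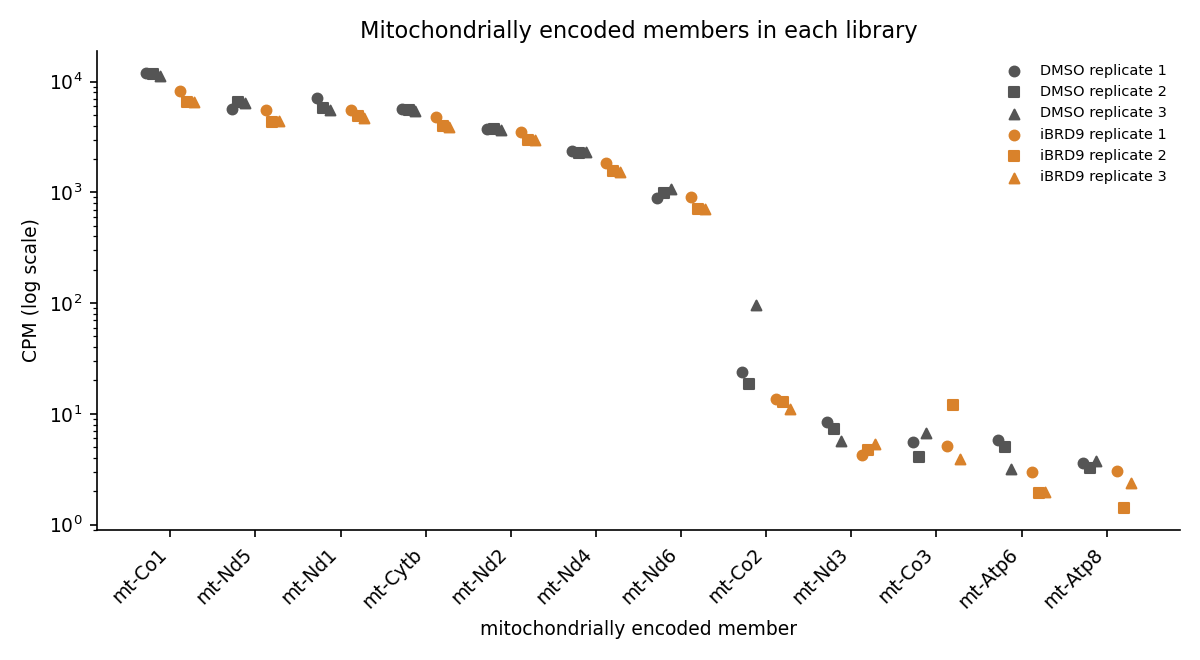
CPM on a log axis of the 12 tested mitochondrially encoded members in each library, ordered by their mean with DMSO; colour gives the treatment and symbols the replicate. The first 7 lie between 701 and 12087 CPM, and the other 5 lie between 1.40 and 95.5 CPM.

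The other 6 mitochondrially encoded genes were listed far lower, also per kilobase, with 67.2 CPM per kilobase for mt-Co2 and 7575 CPM per kilobase for mt-Co1 in the DMSO mean. mt-Co2 held 23.7, 18.7 and 95.5 CPM with DMSO and 13.7, 12.9 and 11.1 CPM with iBRD9, and the mean DMSO levels were 7.11 CPM for mt-Nd3, 5.45 CPM for mt-Co3, 4.69 CPM for mt-Atp6, 3.52 CPM for mt-Atp8 and 0.0675 CPM for mt-Nd4l. All but mt-Atp8 have a near-identical copy annotated as a pseudogene on chromosome 1: at least 98.0% of their 50-base windows also occur in Gm28661 (mt-Co2), Gm28437 (mt-Co3), Gm10925 (mt-Atp6), Gm28438 (mt-Nd3) or Gm10222 (mt-Nd4l). By alignment mt-Co2 and Gm28661 differed at 0 of 681 bases and mt-Nd3 and Gm28438 at 1 of 345. mt-Co1 and Gm29216 differed at 6 of 492 bases, and 51.1% of the windows of mt-Co1 are shared. mt-Nd4 and Gm28439 differed at 0 of 876 bases, and 62.2% of the windows of mt-Nd4 are shared, so reads from the shared stretches of these abundant genes can also be split. The starts of the first pairs and bases 1054 to 1113 of mt-Co1 show what a counting program has to tell apart, with differing bases in capitals (transcript sequences of GENCODE vM21 on GRCm38, 5′ to 3′).
mt-Co2: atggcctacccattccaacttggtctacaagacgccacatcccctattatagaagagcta
Gm28661: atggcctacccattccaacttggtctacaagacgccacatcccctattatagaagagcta
mt-Nd3: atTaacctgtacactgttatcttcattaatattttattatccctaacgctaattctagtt
Gm28438: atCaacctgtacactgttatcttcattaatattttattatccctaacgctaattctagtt
mt-Co1: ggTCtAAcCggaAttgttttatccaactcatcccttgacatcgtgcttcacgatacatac
Gm29216: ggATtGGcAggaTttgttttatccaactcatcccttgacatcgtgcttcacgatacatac
The copies themselves were counted unevenly: Gm28661 had 17, 262 and 14 counts in the DMSO libraries and 13, 1931 and 15 with iBRD9. Values of mt-Co2, mt-Co3, mt-Atp6, mt-Nd3 and mt-Nd4l are therefore uncertain, and the calls of mt-Co2 (-1.86), mt-Atp6 (-1.02) and mt-Nd3 (-0.59) are given as listed. mt-Atp8 shares 0% of its windows with other annotated genes but was listed low as well (17.2 CPM per kilobase with DMSO). The reason was not tested, and the value of mt-Atp8 is uncertain too. The call of mt-Co2 was lost without DMSO replicate 1 (-2.17) or any 1 iBRD9 replicate (-1.94, -1.88 and -1.79). It was also lost with all libraries in limma-voom (-1.46, limma-voom adjusted p = 0.0585) and in edgeR with no filter (-1.87, edgeR adjusted p = 0.163). The call of mt-Nd3 was lost without iBRD9 replicate 1 (-0.51) or 2 (-0.58). mt-Co3 was not called (0.35), and its value was -0.27 without iBRD9 replicate 2. mt-Atp8 was not called (-0.61), and was called without DMSO replicate 1 (-0.59, edgeR adjusted p = 0.0249) or iBRD9 replicate 1 (-0.90, edgeR adjusted p = 0.0255).

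Shared sequence also touches nuclear members. Of the 94 tested members, 36 share 10% or more of their 50-base windows with another annotated gene, and 58 do not. Among those 58, 6 were higher and 29 lower. The 52 nuclear ones had a median of -0.19, with 25 lower and 6 higher. The 5 tested nuclear members that share 50% or more are Ndufb4c (100%), Atp5g2 (87.4%), Atp5l (84.8%), Cox7c (53.0%) and Atp5o (50.3%). Next come Atp5h (47.9%), Uqcrb (43.4%), Ndufs3 (39.7%) and Atp5f1 (38.7%). The counts, and so the calls, of all these genes are uncertain to that extent.

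The promoters of the nuclear members were searched for short sequences known to bind regulators of respiratory genes, in the 250 bases before and 50 bases after the start, on both strands. RefSeq (GRCm38.p6) gave a promoter for 66 of the 82 tested nuclear members. CCGGAAG (GABP and other ETS factors) was found in 24.2% of these members and 9.93% of 27025 genes with an entry. AAGATGGC (YY1) was found in 15.2% and 3.19%, GCGCATGCGC (NRF1) in 7.58% and 1.07%, and CAAGGTCA (estrogen-related receptors) in 6.06% and 1.76%. The E-box CACATG, which Mitf can bind, was found in 9.09% and 15.9%, and GGGGCGG (SP1) in 28.8% and 25.5%. None of these motifs contains another, but an ETS match that ends in AAG can share those letters with a YY1 match. By call, CCGGAAG was in 8 of 33 members that fell, 1 of 7 that rose and 7 of 26 not called, and AAGATGGC in 5 of 33, 0 of 7 and 5 of 26. In the same order, NRF1 letters were in 2 of 33, 0 of 7 and 3 of 26, and estrogen-related receptor letters in 3 of 33, 0 of 7 and 1 of 26. At such low shares, 7 members are too few for a count of 0 to tell the rises from the rest. A match is a description of the letters and not a measured site. The 27025 genes include genes that were not tested here, while the members were all tested. The sets therefore also differ in expression, and the shares among tested genes alone were not counted. One promoter of each call is shown (the 250 bases before the start, 5′ to 3′ on the gene's strand, with the ETS, NRF1, YY1 and estrogen-related receptor letters in capitals and E-box and SP1 letters not marked). Sdhd fell and lies at chr9:50603850-50604099, Uqcrh rose and lies at chr4:116075071-116075320, and Cox6a1 was not called and lies at chr5:115348959-115349208, all on the minus strand.
Sdhd: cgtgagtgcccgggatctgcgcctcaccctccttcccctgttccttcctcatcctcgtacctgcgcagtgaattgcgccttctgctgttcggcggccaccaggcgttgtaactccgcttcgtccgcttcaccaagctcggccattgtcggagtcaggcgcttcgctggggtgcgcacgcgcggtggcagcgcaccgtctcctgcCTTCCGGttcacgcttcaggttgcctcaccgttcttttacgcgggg
Uqcrh: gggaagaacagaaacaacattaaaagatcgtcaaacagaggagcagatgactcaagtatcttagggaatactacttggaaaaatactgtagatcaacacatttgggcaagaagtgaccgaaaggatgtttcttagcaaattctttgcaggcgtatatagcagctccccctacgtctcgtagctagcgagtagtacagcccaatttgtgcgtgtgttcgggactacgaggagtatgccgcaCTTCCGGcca
Cox6a1: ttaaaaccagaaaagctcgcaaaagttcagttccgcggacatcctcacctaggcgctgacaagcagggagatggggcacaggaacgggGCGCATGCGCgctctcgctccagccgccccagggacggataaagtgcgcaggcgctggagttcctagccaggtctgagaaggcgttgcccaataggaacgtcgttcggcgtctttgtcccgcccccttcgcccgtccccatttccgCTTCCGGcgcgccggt
The capitals in Sdhd and Uqcrh are CTTCCGG, the ETS letters on the other strand, and in Cox6a1 the NRF1 letters followed by the ETS letters.

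The regulators that read such letters were measured in the same libraries. The list of 15 transcription factors and coactivators of respiratory genes had 14 tested members. Of these, 6 fell (42.9%) and 2 rose (14.3%), against 30.9% and 29.8% of all tested genes. In either direction 57.1% were called, near the 60.7% of all tested genes. Esrrg, the estrogen-related receptor gamma, held 22.6, 27.0 and 28.9 CPM with DMSO and 6.98, 6.44 and 6.21 CPM with iBRD9, a fall of 2.00 on the log2 scale (SE 0.116, edgeR adjusted p = 6.93e-06). It was the largest change on the list, and its groups were far apart. Myc (-0.99), Yy1 (-0.36) and Nrf1 (-0.28) fell, Nrf1 losing its call without DMSO replicate 2 (-0.25), iBRD9 replicate 1 (-0.25) or iBRD9 replicate 3 (-0.29). Ppargc1b (6.83 to 12.7 CPM, 0.90) and Pprc1 (0.43), coactivators of the PGC-1 family, rose. Ppargc1a held 415, 508 and 500 CPM with DMSO and 555, 539 and 524 CPM with iBRD9 (0.19, edgeR adjusted p = 0.0804) and was not called. Gabpa (-0.08) and Esrra (-0.02) were not called either, although Gabpa was without DMSO replicate 1 (-0.10, edgeR adjusted p = 0.0434).

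Enzymes that feed the chain were mostly lower with iBRD9. In the list of pyruvate dehydrogenase and the tricarboxylic acid cycle, 16 of 21 tested genes fell (76.2%) and 1 rose (4.76%), with a median of -0.38. Of all tested genes, 30.9% fell and 29.8% rose. Suclg2, the GDP-specific subunit of succinyl-CoA ligase, held 115, 127 and 120 CPM with DMSO and 64.7, 68.0 and 67.5 CPM with iBRD9 (-0.85, SE 0.061, edgeR adjusted p = 1.83e-05). Its groups were apart. Citrate synthase (Cs, -0.56) was also lower, and Pcx, pyruvate carboxylase, was higher (0.32). Of 20 genes for electron carriers and coenzyme Q synthesis, 11 fell (55%) and 1 rose (5%). Coq4 (-0.74) and Coq3 (-0.70) of coenzyme Q synthesis fell, while cytochrome c (Cycs) was not called at 314 ± 4.37 and 312 ± 11.4 CPM (SD, n = 3). Of 6 tested carriers and outer membrane channels, 4 fell (66.7%) and 1 rose (16.7%). Slc25a5, an adenine nucleotide translocase, fell (415 ± 44.5 to 269 ± 9.54 CPM, -0.63; SD, n = 3), and its relative Slc25a4 rose (716 ± 66.9 to 966 ± 24.9 CPM, 0.43; SD, n = 3).

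Assembly factors, which help to build the complexes without being part of them, were counted by complex, with no test between the lists and with 30.9% of all tested genes lower and 29.8% higher. Those of complex V all fell (4 of 4), led by Tmem70 (-0.84) and Fmc1 (-0.64). For complex I, 10 of 18 fell and 2 rose, with Nubpl (-0.90), which delivers iron-sulfur clusters, and Ndufaf5 (-0.75) lowest and Ndufaf2 (0.45) highest. For complex IV, 9 of 21 fell and 3 rose. Cox10, which makes the heme of the oxidase, held 43.5, 46.4 and 49.2 CPM with DMSO and 22.8, 23.6 and 20.5 CPM with iBRD9 (-1.06, SE 0.081, edgeR adjusted p = 2.48e-05). Taco1, a translational activator of mt-Co1, changed by -0.81, and Pet100 (0.70) and Cmc2 (0.46) were higher. Of complex III factors 1 of 6 fell (Uqcc1, -0.59), and of complex II factors 0 of 4 were called by edgeR. None of these (0) had an unadjusted p under 0.05 in edgeR or an adjusted one in DESeq2 or limma-voom.

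For the mitochondrial genome itself, 14 of 25 tested genes of transcription and RNA handling fell (56%) and 1 rose (4%). Of all tested genes, 30.9% fell and 29.8% rose. Hsd17b10 (-0.93) and Trmt10c (-0.74), both parts of the enzyme that cuts transfer RNAs out of mitochondrial transcripts, fell most among the genes named by the rule, and Fastkd3 (0.45) rose. Lrpprc, which stabilises mitochondrial mRNAs, held 503, 518 and 507 CPM with DMSO and 383, 378 and 365 CPM with iBRD9 (-0.44). Tfam, which packages and transcribes the mitochondrial genome, was not called (-0.13), and was without DMSO replicate 1 (-0.16, edgeR adjusted p = 0.0249). Of 8 genes of mitochondrial DNA replication, 2 fell and 2 rose, 25.0% in each direction and near the shares of all tested genes. Polg2, the accessory subunit of the polymerase, rose (4.51, 3.19 and 2.78 CPM with DMSO; 7.79, 6.56 and 5.87 CPM with iBRD9; 0.95) and Mgme1 fell (-0.60).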

How the data were processed

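The authors deposited unnormalised counts of reads per gene, with Ensembl IDs, for 6 libraries. The submitters' processing notes name CASAVA 1.8.2, Bowtie2 2.4.5 and GRCm39. How reads were assigned to genes, with which annotation and strand setting, is not given in the sources used here. Every value was a whole number, and totals differed between libraries.

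Libraries were grouped by treatment and compared in edgeR 4.0.16 (R 4.3.3) with TMM scaling, filterByExpr at a minimum count of 10 (13602 of 35275 rows tested), the robust quasi-likelihood F-test and Benjamini-Hochberg adjustment over all tested genes. All tests are two-sided. Levels are TMM-scaled CPM. The biological coefficient of variation was 0.0921. In counts simulated over 13407 genes, 92 of 100 genes changed 2-fold and 80 of 100 changed 1.5-fold were recovered. Of 180 calls, 8 were of unchanged genes. No other genes were changed, the dispersion was the same for all genes, and no library stood apart as DMSO replicate 1 did. The rates may therefore not hold for the real comparison, where 8262 genes were called. Of the replicates the sample titles give the number only, and the tests treated them as independent. No pair of libraries agreed within sampling noise.

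Members, lists, roles and tests were chosen with earlier results of these data known. By rule the text names every mitochondrially encoded member, up to 3 rises and 3 falls per complex (mean log2 CPM of 1 or more), a set of subunits whatever their values, and up to 2 rises and 2 falls per other list. Ndufa10, Ndufs3, Ndufs7, Ndufv2, Ndufa5, Uqcrb, Cox6c, Cox7c, Atp5d, Atp5e, Atp5f1, Atp5g2, Atp5g3, Atp5o, Atp5h, Atp5l, Atp5j, Atp5j2, Atp5k, Cs, Lrpprc, Tfam, Cycs, Ppargc1a, Nrf1, Yy1, Gabpa and Esrra were chosen for the text after their values were seen. Some genes that the rule names are not reported here. Ndufa4 was counted in complex IV and Ndufa4l2 in none. Symbols, transcript lengths and shared 50-base windows came from GENCODE vM21 on GRCm38, an older build than the authors'. Each gene was given its longest principal transcript, or else its longest basic or other one. Listed genes without a row were left out. Alternatives were DESeq2 size factors, library size alone, leaving out mitochondrially encoded genes, DESeq2 1.42.0, limma-voom (limma 3.58.1), other filters, a block for the replicate number, a stricter adjusted p (0.01) and fits without each library in turn. Figures were drawn with matplotlib 3.10.9.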

Additional observations from a re-analysis of the deposited data

How the results depend on the processing

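The 52 falls and 7 rises among members kept their balance toward falls under every alternative, though the rises were few and moved most. With library size alone as the scale, 18 members were called higher, 6 in complex I, 6 in complex IV and 5 in complex V, and the nuclear median was -0.13, while the median of all genes was 0.113. Complex V had 2 rises with a filter at 1 CPM in 3 libraries and 0 at an adjusted p under 0.01. Members that share under 10% of their windows, an alternative chosen after seeing the data, held 29 falls. Over all counts of members, the mitochondrially encoded share had an iBRD9 to DMSO ratio of 0.981, against 0.786 over all counts. Leaving out 1 library gave 6 to 13 members called higher and 42 to 61 called lower. The rises were 2 to 4 in complex I, 1 to 2 in complex III and 0 to 3 in complex V, and the nuclear median was -0.30 to -0.21. For genes that were not called, the sign changed with library size alone in Cox7a2 (0.072), Cycs (0.096), Gabpa (0.031) and Esrra (0.085), and with the filter at 1 CPM in Cycs (0.012) and Esrra (0.00090). It also changed when 1 library was left out in Cox6b1 (-0.021 to 0.025), mt-Co3 (-0.27 to 0.63) and Cycs (-0.040 to 0.011). In each case the cause was not tested.

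With the replicate number as a block, 9 members were called higher and 51 lower, with 2 rises in complex V, and 3920 genes were higher and 4017 lower in all. Same-numbered libraries correlated at 0.109, 0.046 and 0.017 in their deviations from the group means, and the others at -0.084 to 0.048. DMSO replicates 1 and 2 correlated best with the iBRD9 library of the same number, and DMSO replicate 3 with iBRD9 replicate 2 (0.048). With 3 libraries per group these values cannot decide whether the numbers pair the samples.

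Depth was not the limit for the abundant members. Isoforms below 1 CPM, mt-Atp8 and the 5 low mitochondrially encoded genes with near-identical nuclear copies cannot be read closely. With 3 libraries per group, 13 of the 59 calls were lost when some 1 library was left out.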
